A study of Mus musculus with 2 samples.

Results

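Lysosomal hydrolases, cathepsins and lysosomal membrane proteins were followed in mouse embryonic stem cells (ESCs) labelled as overexpressing HDAC6, against wild-type (WT) ESCs. The set was 39 genes chosen by what their proteins do, not by a threshold on their values, but with earlier results of these data known. It held 11 cathepsins, 2 other proteases, 10 glycosidases, 4 sulfatases, 4 lipid hydrolases, 2 soluble lipid-binding proteins and 6 membrane proteins. The genes were found on the arrays through the accession of each probe, which gave 47 probes among the 26762 that carried a gene name. All 39 passed the filter on dim probes, among 16071 genes tested of 20284 named. RNA of B6C3F1 ESCs at passage 26 was used, from WT cells in the Cy3 channel and from cells of the genotype HDAC6 overexpression in the Cy5 channel of the same array. Cells of both genotypes were kept with serum and the cytokine LIF on a layer of mitomycin C-treated mouse embryonic fibroblasts, the feeders. The labels do not name the construct or promoter that drives HDAC6, nor whether the overexpressing line is a clone. There were 2 arrays, which the labels call biological replicates, and nothing in the labels names separate cultures. The p-values below therefore measure only the spread between these arrays, which may be technical and is in part pooled over all genes.

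Lysosomes are acidic organelles in which soluble hydrolases break down proteins, glycans, sulfated sugars and lipids that arrive by endocytosis and autophagy. Most of these enzymes carry a phosphomannose tag that receptors in the Golgi recognise, a proton pump (V-ATPase) acidifies the lumen, and the limiting membrane is rich in glycoproteins, channels and transporters. Many lysosomal genes carry an E-box-like element in their promoters that the basic helix-loop-helix factors Tfeb, Tfe3, Mitf and Tfec can bind, and this is why they are often read together. HDAC6 is a mainly cytoplasmic deacetylase of tubulin and other proteins that is also known for its role in autophagy.

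Each value is the processed signal of Agilent's software, and a change is the log2 ratio of overexpression over WT on the same array. A mean log2 ratio had a median standard error of 0.094. The test rested on 1 residual degree of freedom per gene and 4.59 prior degrees of freedom drawn from all genes. Both arrays had the same dye orientation, so dye and genotype cannot be told apart in any ratio, and the number of arrays limits the precision. Between 68.8% and 69.6% of probes were well above background in a channel. The Hdac6 probe read 16389 and 17806 in WT and 18275 and 17344 in overexpressing cells on replicates 1 and 2. Its mean log2 ratio was 0.06 ± 0.14 (SD, n = 2; limma adjusted p = 0.64). With an intensity-dependent (loess) dye balance it was 0.05 (adjusted p = 0.70). It was 0.52 (adjusted p = 0.0010) when the arrays were only centred on their median, which also raised other bright genes. Whether this probe matches the introduced sequence is not given in the labels. "Overexpression" below therefore stands for the cells labelled so. The stem cell marker Pou5f1 was bright in both genotypes, at 26878 and 25842 in WT and 28885 and 32496.5 in overexpression.

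Of the 39 genes, 20 were higher in overexpressing cells, 7 were lower and 12 did not pass limma's test at an adjusted p under 0.05. Among all genes tested 21.2% were higher, 29.9% were lower and 51.1% were called either way, so that a call by itself is common in these data. The share of the 39 called higher was 51.3% and the share called lower 17.9%. Their median log2 ratio was 0.30, with 0.26 on replicate 1 and 0.27 on replicate 2, whereas the median of all genes was -0.06 and their quartiles were -0.37 and 0.24. In 34 of the 39 the sign was the same on both arrays. Among genes measured in both channels, 4 were past 1.5-fold upward on each array (Ctsh, Ctsc, Lgmn and Ctsk) and 2 downward (Gusb and Mcoln1). The measured signals of 7.88% and 12.6% of all genes were past that size upward and downward, genes dim in 1 channel included. Ctso passed the filter only through overexpression, since its WT signal was not well above background on either array. Without it, 19 of 38 genes were higher, with a median log2 ratio of 0.29. The cells were measured in bulk, so fewer cells of a type and less RNA per cell cannot be told apart in any of these values.

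The counts differed between the roles and are to be read against 21.2% higher and 29.9% lower among all genes tested. The share called higher was 90.9% of cathepsins, 30% of glycosidases and 33.3% of membrane proteins. Of the 11 cathepsins 10 were higher (9 without Ctso) and 0 lower, with a median log2 ratio of 0.56 (0.54 and 0.58 on replicates 1 and 2). Of the 10 glycosidases 3 were higher and 1 was lower, with a median of 0.10 (0.15 and 0.08). Of the 6 membrane proteins 2 were higher and 3 lower, with a median of -0.14 (-0.09 and -0.18). The lipid hydrolases had 1 higher and 3 lower of 4, and 0 of the 4 sulfatases passed the test. The difference between roles was not tested, since genes are not replicates. Values reach from 0.21 to 4.15 within the cathepsins, from -0.91 to 0.36 within the glycosidases and from -0.79 to 0.31 within the membrane proteins, so the lower cathepsins overlap the upper members of both other roles.

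**Figure D1:**
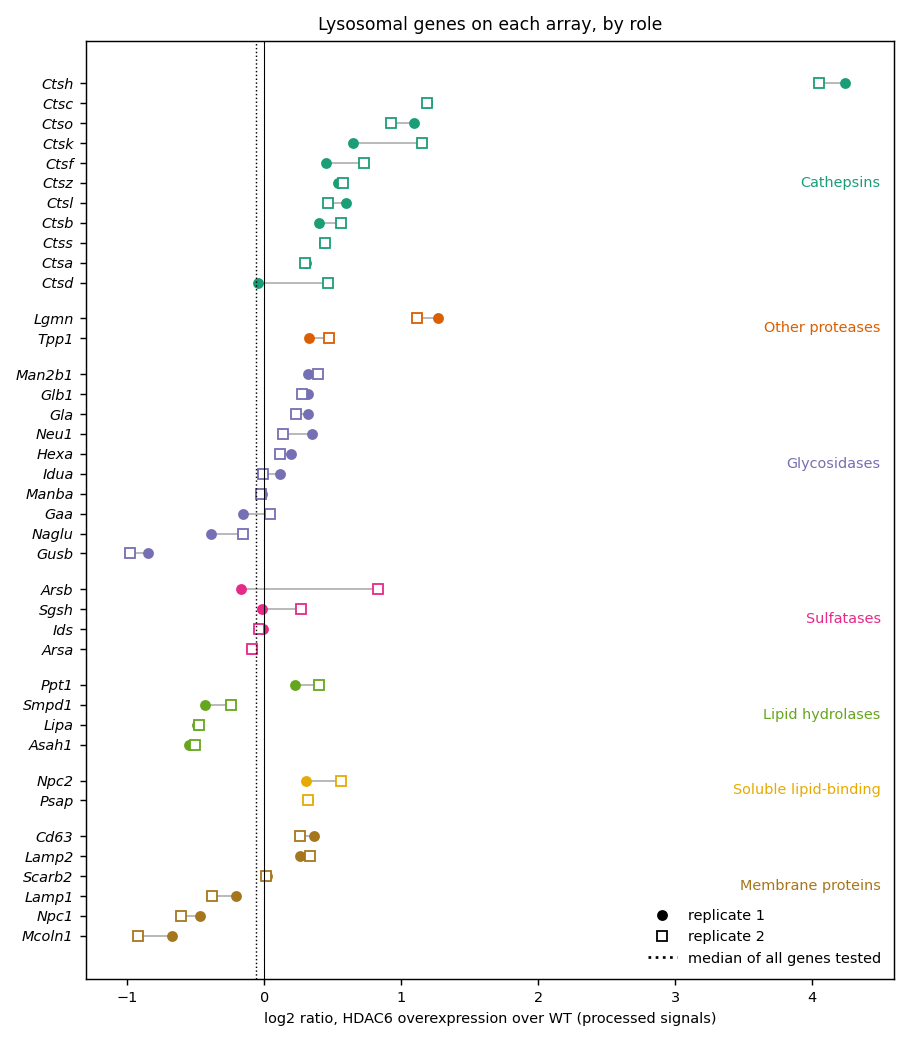
Log2 ratio of HDAC6 overexpression over WT (horizontal axis) for each of the 39 genes, grouped by role, with filled circles for replicate 1, open squares for replicate 2 and a dotted line at the median of all genes tested. The ratio of Ctso rests on WT signals not well above background. All 11 cathepsins have a positive mean, from 0.21 (Ctsd) to 4.15 (Ctsh), while the membrane proteins run from -0.79 (Mcoln1) to 0.31 (Cd63).

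Because the regulators of lysosomal genes bind an E-box, the 250 bases before each RefSeq start site (build GRCm38.p6) were searched for the palindrome CACGTG, which reads alike on both strands. An entry was found for 35 of the 39 genes, leaving Ctsh, Ctsb, Asah1 and Npc1 without one. The letters were present in 13 of the 35 (37.1%), against 6.86% of all 27025 genes and 6.02% of all 32851 windows. By role they were present in 4 of 9 cathepsins, 1 of 2 other proteases, 4 of 10 glycosidases, 2 of 4 sulfatases, 0 of 3 lipid hydrolases, 0 of 2 soluble lipid-binding proteins and 2 of 5 membrane proteins. The longer form TCACGTG, searched on both strands and overlapping the shorter, was in 11 of 35 genes (31.4%) against 3.58% of all genes. The full palindrome TCACGTGA was in 4, namely Ctsa, Ctsd, Gla and Mcoln1 (11.4%, against 0.907%). Such a match is a description of the letters and shows no binding. The lines below give, 5′ to 3′ on the gene's strand with CACGTG in capitals, 30-base stretches of genes that went different ways: Lgmn, Ctsa, Gla and Glb1 rose, Lamp1 and Mcoln1 fell, and Ctsd and Arsa did not pass the test.
Lgmn, chr12:102439124-102439153, minus strand: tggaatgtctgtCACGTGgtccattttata
Ctsa, chr2:164833743-164833772, plus strand: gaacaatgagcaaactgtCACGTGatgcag
Ctsd, chr7:142387908-142387937, minus strand: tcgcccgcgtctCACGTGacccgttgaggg
Gla, chrX:134601182-134601211, minus strand: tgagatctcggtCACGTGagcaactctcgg
Glb1, chr9:114401018-114401047, plus strand: ctgcttctgagtCACGTGgcctacagaggc
Arsa, chr15:89477425-89477454, minus strand: cttcaactcagtgtCACGTGttgtctgctc
Lamp1, chr8:13159088-13159117, plus strand: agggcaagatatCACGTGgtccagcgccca
Mcoln1, chr8:3500462-3500491, plus strand: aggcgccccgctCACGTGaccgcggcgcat

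The calls were also counted by these letters, with no test of the difference. Of the 13 with CACGTG, 6 were higher and 2 lower, with a median log2 ratio of 0.21. Of the 22 with an entry but no CACGTG, 12 were higher and 3 lower, with a median of 0.31.

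Ctsh, a cysteine protease that acts mainly as an aminopeptidase, changed most. Its signal was 830.0 and 967 in WT and 15689 and 16054 in overexpressing cells on replicates 1 and 2. Both overexpression values lay far above both WT values. The mean log2 ratio was 4.15 ± 0.13 (SD, n = 2), a 17.7-fold rise (limma adjusted p = 2.4e-05). Ctsh ranked 23 of 16071 genes from the top, and the next member in the order, Lgmn, rose 2.29-fold. The raw spot brightness, before any correction, was 1296 and 1373.5 in WT and 24342 and 25159.5 in overexpression.

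Ctsc (cathepsin C) removes dipeptides and activates serine proteases of immune granules. It read 3934 and 4374 in WT and 8962 and 9988 in overexpressing cells. The log2 ratio was 1.19 on both arrays, a 2.28-fold rise (adjusted p = 0.00049). Ctsk, the collagen-degrading cathepsin best known from osteoclasts, read 586 and 732 in WT and 917 and 1627 in overexpression. Both overexpression values exceeded both WT values, but the arrays differed in size, with log2 ratios of 0.65 and 1.15 (mean 0.90 ± 0.36, SD, n = 2; adjusted p = 0.0041). Ctso, a cysteine cathepsin of which little is known, was dim. Its WT signals of 23.2 and 26.1 were not well above background on either array, whereas overexpression gave 49.4 and 49.5. No exact ratio is given for it. Its fold is a bound, at least 1.19-fold higher, taking the lowest signal well above background as the WT level. The limma adjusted p of 0.00093 rests on the dim WT signals and is no test of this bound.

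The other papain-family cathepsins moved by less in the processed values. Ctsf read 2975 and 3117 in WT and 4062 and 5149.6 in overexpression, a log2 ratio of 0.59 ± 0.19 (SD, n = 2; adjusted p = 0.0070). Ctsz, a carboxypeptidase, rose from 14473 and 15502 to 21047 and 23124 (0.56 ± 0.026; adjusted p = 0.0046). For both genes the overexpression values lay wholly above the WT values. Ctsl and Ctsb, broadly expressed endopeptidases, rose by 0.53 ± 0.090 (adjusted p = 0.0063) and 0.48 ± 0.11 (adjusted p = 0.0095). Ctsl read 16564 and 20216 in WT against 25021 and 27958 in overexpression. Ctsb read 15023 and 15817 against 19854 and 23295. Ctss, which trims the invariant chain in antigen-presenting cells, had the same log2 ratio of 0.44 on both arrays (adjusted p = 0.010). Its signals, 1484 and 2057 in WT and 2009.5 and 2798 in overexpression, overlapped across arrays but not within either array.

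On the brighter probes, the cathepsins that are not cysteine proteases had the smallest ratios in the processed values. This did not hold with median centring (Ctsa 0.71 and Ctsd 0.89, against 0.30 for Ctss). Nor did it hold on the dimmer probes, with processed means of 0.94 for Ctsa and 0.45 for Ctsd against 0.44 for Ctss. Ctsa, a serine carboxypeptidase that also holds Glb1 and Neu1 in a stable complex, read 14292 and 14860.3 in WT and 17643 and 18276 in overexpression. Its log2 ratio was 0.30 on both arrays (adjusted p = 0.036). Ctsd, the main aspartic protease of lysosomes, read 23734 and 19386 in WT and 22993 and 26805 in overexpression. Here the genotypes overlapped, the log2 ratios were -0.05 and 0.47, and the mean of 0.21 ± 0.36 (SD, n = 2) did not pass the test (adjusted p = 0.25). A dimmer probe of Ctsd gave 0.22 and 0.68.

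**Figure D2:**
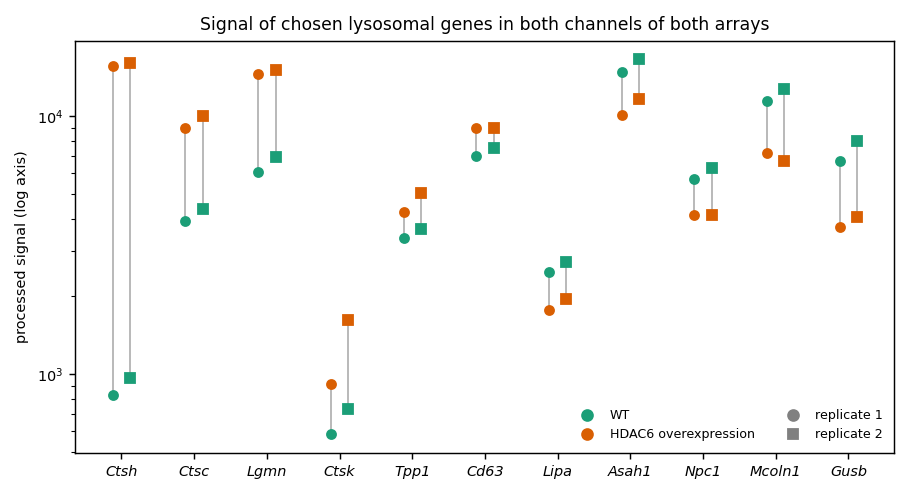
Processed signal (vertical log axis) of 11 of the genes in WT and in HDAC6 overexpression, with circles for replicate 1, squares for replicate 2 and a line joining the channels of an array. Ctsh goes from 830.0 and 967 in WT to 15689 and 16054, while Gusb and Mcoln1 are lower in overexpression on both arrays.

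Both other proteases were higher. Lgmn (legumain), an asparaginyl endopeptidase that processes cathepsins to their mature forms, read 6052 and 6925 in WT and 14596 and 15013 in overexpression. Its log2 ratios of 1.27 and 1.12 gave a mean of 1.19 ± 0.11 (SD, n = 2), a 2.29-fold rise (adjusted p = 0.00057). Tpp1, which removes tripeptides, rose from 3375 and 3637 to 4232 and 5039.8, a log2 ratio of 0.40 ± 0.10 (adjusted p = 0.017). In both genes each overexpression value lay above each WT value.

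Among the glycosidases small rises stood beside a fall in Gusb. Man2b1, the lysosomal alpha-mannosidase, had the highest processed ratio of this role, which with median centring was that of Idua (1.03). It read 12558 and 13365 in WT and 15684 and 17547 in overexpression (log2 ratio 0.36 ± 0.051, SD, n = 2; adjusted p = 0.022). Glb1, the beta-galactosidase, rose by 0.30 ± 0.034 (adjusted p = 0.039), from 4603 and 5018 to 5745 and 6058. Gla, the alpha-galactosidase, rose by 0.28 ± 0.063 and lay close to the threshold (adjusted p = 0.049). In the processed values these were changes of at most 1.28-fold.

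Gusb, the beta-glucuronidase, went the other way and was the lowest of all 39 genes. It read 6709 and 8021 in WT and 3724 and 4071 in overexpression, with both overexpression values below both WT values. The mean log2 ratio was -0.91 ± 0.092 (SD, n = 2), a 1.88-fold fall (adjusted p = 0.0011). The other 6 glycosidases did not pass the test. Neu1, the sialidase, had a log2 ratio of 0.24 ± 0.15 (adjusted p = 0.093) and Hexa, a subunit of beta-hexosaminidase, 0.16 ± 0.060 (adjusted p = 0.20). Idua, which removes iduronic acid from heparan and dermatan sulfate, stood at 0.05 ± 0.086. Manba, the beta-mannosidase, and Gaa, the acid alpha-glucosidase, stood at -0.02 ± 0.0093 and -0.06 ± 0.14. Naglu, which acts on heparan sulfate, stood at -0.27 ± 0.17 (adjusted p = 0.071).

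By limma 0 of the 4 sulfatases were called (1, Sgsh, with loess or with median centring; 0 at an unadjusted p under 0.05), compared with 51.1% of all genes either way. Arsb, which desulfates dermatan sulfate, was dim and differed in sign between arrays. It read 235 and 207 in WT and 209 and 369 in overexpression (log2 ratio 0.33 ± 0.71, SD, n = 2; adjusted p = 0.27). Sgsh, a heparan sulfate sulfamidase, stood at 0.12 ± 0.20 (adjusted p = 0.37). Ids, the iduronate sulfatase, stood at -0.02 ± 0.020 (adjusted p = 0.86). Arsa, which desulfates sulfatide, read 8673 and 8987 in WT and 8125 and 8438 in overexpression, with log2 ratios of -0.09 on both arrays (adjusted p = 0.42).

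Of the lipid hydrolases 3 fell. Asah1, the acid ceramidase, read 14834 and 16559 in WT and 10117 and 11687 in overexpression. Its log2 ratio was -0.53 ± 0.035 (SD, n = 2; adjusted p = 0.0057), and a further, dimmer probe gave -0.53 as well. Lipa, which splits cholesteryl esters and triglycerides, fell from 2484 and 2723 to 1767 and 1956 (-0.48 ± 0.0099; adjusted p = 0.0074). Smpd1, the acid sphingomyelinase, fell by 0.34 ± 0.13 on the log2 scale (adjusted p = 0.032). In all of these both overexpression values lay below both WT values. Ppt1, which removes palmitate from proteins, was the exception. It read 2082 and 2312 in WT and 2433 and 3054 in overexpression (0.31 ± 0.13; adjusted p = 0.041).

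The soluble lipid-binding proteins both rose. Npc2 hands cholesterol to the membrane protein Npc1, and Psap is the precursor of the saposins that help hydrolases reach sphingolipids. Npc2 read 12451 and 13112 in WT and 15408 and 19283 in overexpression, a log2 ratio of 0.43 ± 0.18 (SD, n = 2; adjusted p = 0.018). Psap read 8483 and 9489.8 in WT and 10560.4 and 11843 in overexpression, with a log2 ratio of 0.32 on both arrays (adjusted p = 0.030). Npc2 and Npc1, which act in sequence in cholesterol export, therefore had ratios of opposite sign.

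Among the membrane proteins the fall was largest in Mcoln1, a cation channel that releases calcium from lysosomes. It read 11454 and 12685 in WT and 7193 and 6710.0 in overexpression, with both overexpression values below both WT values. The mean log2 ratio was -0.79 ± 0.18 (SD, n = 2), a 1.74-fold fall (adjusted p = 0.0023). Npc1, the cholesterol exporter, fell from 5721 and 6282 to 4137 and 4121 (-0.54 ± 0.099; adjusted p = 0.0062). Lamp1, a major glycoprotein of the lysosomal membrane, had a log2 ratio of -0.29 ± 0.12 at the edge of the threshold (adjusted p = 0.049), and with median centring -0.01 (adjusted p = 0.91). Its relative Lamp2 went the other way, at 0.30 ± 0.050 (adjusted p = 0.039), and a further probe to another transcript of Lamp2 gave 0.30. Cd63, a tetraspanin of late endosomes and lysosomes, read 7003 and 7494 in WT and 9013 and 8959.7 in overexpression (0.31 ± 0.075; adjusted p = 0.036). Scarb2, a membrane receptor that carries glucocerebrosidase to lysosomes, stood at 0.02 ± 0.0075 (adjusted p = 0.89).

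For 8 of the 39 genes a further probe was present, and it did not always give the same value. The brighter probe stands for the gene above. Ctsa gave 0.30 on the brighter and 0.94 on the dimmer probe, so the direction held and the size did not. Idua gave 0.05 and -0.47, Sgsh 0.12 and -0.27, and Arsb 0.33 and -0.16, each of opposite sign. The probes of Asah1 (-0.53 and -0.53), Lamp2 (0.30 and 0.30) and Gaa (-0.06 and -0.08) were close to each other.

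The size of a change in the brightest genes depended on how the dyes were balanced. Values were set side by side under 3 settings: the processed ratio, normexp correction with an intensity-dependent (loess) balance, and normexp with only the median of each array set to 0. The uncorrected Cy5 over Cy3 brightness of Sgsh, with WT processed signals of 50386 and 43909, was 2.97 and 3.19. Its log2 ratio was 0.12 after processing, 0.42 with loess (adjusted p = 0.0036) and 1.44 with median centring (adjusted p = 3.7e-07). Idua went in the same way from 0.05 to 0.24 and 1.03, and Ctsd from 0.21 to 0.28 and 0.89. The dimmer probes of these genes did not rise in this way. In the same order of settings, Sgsh gave -0.27, -0.30 and -0.40, Idua -0.47, -0.47 and -0.43, and Ctsd 0.45, 0.44 and 0.43. Ctsh stayed at 4.06 and 4.02, Lgmn at 1.16 and 1.33, Ctsc at 1.17 and 1.22, Gusb at -0.92 and -0.91 and Mcoln1 at -0.80 and -0.67. The bright Ctsl and Ctsb rose from 0.53 and 0.48 in the processed values to 1.18 and 0.98 with median centring, so their size rests on the setting while their direction does not. With median centring the calls of Gla, Ppt1, Smpd1 and Lamp1 were lost, and Gaa and Manba, which were not called, turned positive (0.04 and 0.18). With loess 22 members were higher and 8 lower, against 22.2% and 34.5% of all genes. With median centring 23 were higher and 6 lower, against 30.3% and 30.0% of all genes. The share of all calls that were higher was 41.5% in the processed values, 39.1% with loess and 50.3% with median centring.

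**Figure D3:**
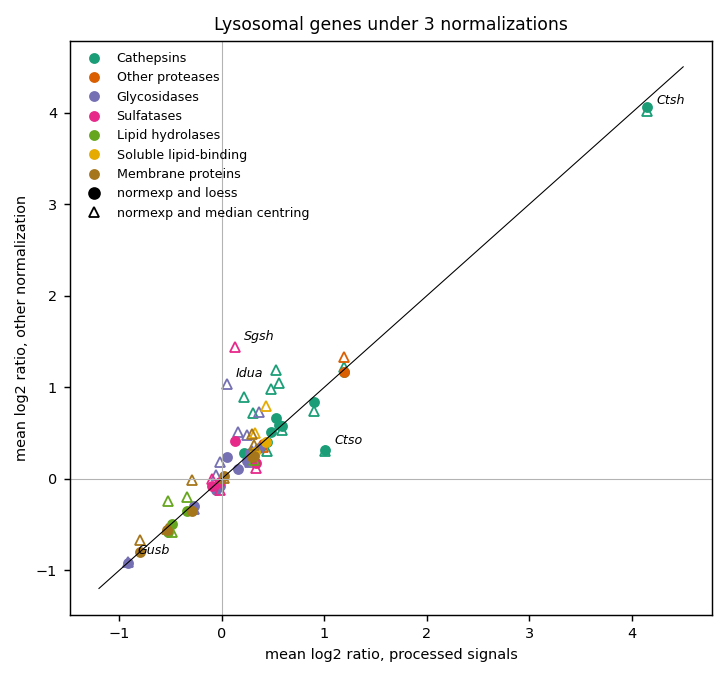
Mean log2 ratio of each of the 39 genes from the processed signals (horizontal axis) against that after normexp with loess (filled circles) or with median centring (open triangles, vertical axis), coloured by role, with a line of equality. Ctsh (4.15 against 4.06 and 4.02) and Gusb (-0.91 against -0.92 and -0.91) lie near the line, while the triangles of Sgsh (1.44) and Idua (1.03) lie far above it.

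Of the factors that bind the E-box in lysosomal promoters, all 4 were higher, as with loess and with median centring, but 3 without the filter on dim probes and 3 with the mean over a gene's probes. Tfec, the member of the family with the most restricted expression, read 86.9 and 119 in WT and 3780.2 and 4086.5 in overexpression. Both overexpression values lay far above WT, with a log2 ratio of 5.27 ± 0.24 (SD, n = 2), a 38.7-fold rise (adjusted p = 2.2e-05). With loess the log2 ratio was 4.47 and with median centring 4.37. Tfeb, the best-known activator of lysosomal genes, read 3047 and 3048 in WT and 4471 and 6161 in overexpression (0.78 ± 0.33; adjusted p = 0.0055). Mitf rose by 0.41 ± 0.025 (adjusted p = 0.013) and Tfe3 by 0.30 ± 0.14 (adjusted p = 0.048). Flcn, which restrains Tfeb and Tfe3, and Zkscan3, a repressor of lysosomal genes, did not pass the test (-0.12 ± 0.16 and -0.18 ± 0.038). Levels of RNA say nothing of where these factors sit in the cell.

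The other lysosomal genes were called in both directions. Over 84 of 101 listed genes that could be tested, 23 were higher and 13 lower, with a median log2 ratio of 0.07. These shares of 27.4% and 15.5% stand beside 21.2% and 29.9% of all genes, against which the counts of the single lists are to be read too. Counts with median centring are to be read against 30.3% higher and 30.0% lower among all genes in that setting. Of 17 subunits of the V-ATPase 5 were higher (11 with median centring) and 2 lower. Atp6v0c, a subunit of the membrane ring, stood at 0.68 ± 0.49 (SD, n = 2; adjusted p = 0.021), and Atp6v1b2 and Atp6v0e2 at -0.49 ± 0.11 and -0.43 ± 0.12. Of 12 genes that tag or carry hydrolases to lysosomes, 1 was higher (6 with median centring) and 4 were lower. Nagpa, which uncovers the phosphomannose tag, rose by 0.71 ± 0.28. The adaptors Ap1b1 and Gga3, which load carriers at the Golgi, were at -0.88 ± 0.11 and -0.73 ± 0.11.

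Of 6 tested protease inhibitors 4 were higher and 0 lower. The serpin Serpinb6a stood at 0.75 ± 0.13 (SD, n = 2; adjusted p = 0.0023), Cst6 at 0.65 ± 0.061 and Stfa2 at 0.62 ± 0.23, where Stfa2 was well above background in WT on 1 array. Of 23 other lysosomal enzymes and related proteins 6 were higher and 5 lower. Acp5, the tartrate-resistant acid phosphatase, fell from 14909.7 and 16995 to 5169 and 4547 (-1.72 ± 0.26; adjusted p = 0.00040). Hgsnat, which acetylates heparan sulfate, fell by 0.96 ± 0.051 on the log2 scale, and Man2b2, a further mannosidase, rose by 1.14 ± 0.019. With median centring 8 of 19 other membrane proteins were higher and 4 lower, against 30.3% and 30.0% of all genes. In the processed values 3 were higher, namely Laptm5 (0.76 ± 0.12), Abcb9 (0.63 ± 0.017) and Slc11a2 (0.61 ± 0.031), and 1 was lower, Lamp3 (-0.59 ± 0.17). Of 11 cathepsins with restricted expression only Ctsw was tested, at -0.61 ± 0.011 (adjusted p = 0.0034).

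Most markers of fibroblasts, primitive endoderm and macrophages were higher, against 21.2% of all genes tested. Of 16 fibroblast markers 15 were higher and 0 lower, with a median log2 ratio of 1.20 (0.92 and 1.49). Their summed signal was 87981 to 95710.1 in WT and 193902 to 259030 in overexpression, and all were well above background in both. Col1a2 stood at 1.71 ± 0.46 (SD, n = 2), S100a4 at 1.68 ± 0.25 and Lum at 1.52 ± 0.22. Of 16 primitive endoderm markers 15 were higher and Afp was lower, with a median of 3.39 (3.36 and 3.41). The count and median include Ttr, which passed the filter only through overexpression. Of these markers, 14 were higher when both channels had to be well above background. Their summed signal was 20566 to 24316 in WT and 165397 to 169252 in overexpression. Ttr was not well above background in WT, which gives at least 31.3-fold, and Cubn and Gata4 stood at 5.51 ± 0.055 and 4.96 ± 0.17.

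Of 12 macrophage markers 10 were higher and 0 lower, with a median of 0.78 (0.64 and 0.79). The count and median include Spi1, which passed the filter only through overexpression. Of these markers, 10 were higher in a refit that required both channels to be well above background, which leaves Spi1 out. That count therefore includes a marker not called in the processed values above. The summed signal of the 12 markers was 35827 in WT against 53264.5 in overexpression on replicate 1. On replicate 2 it was 55935 against 67359. Itgam, which was not called, made up 22832.5 and 40702 of the WT sums and 30298 and 36796 of those in overexpression. Spi1 was not well above background in WT (at least 1.13-fold), while Csf1r stood at 1.23 ± 0.036, Tyrobp at 0.97 and 1.23 on replicates 1 and 2, and C1qa at 1.03 ± 0.25. As background, Ctss and Ctsc are abundant in macrophages. Of 10 pluripotency markers 3 were higher, 3 lower and 4 not called, Tfcp2l1 at 1.40 and 1.60 on replicates 1 and 2, Esrrb at 0.73 ± 0.14 and Tdgf1 at -1.11 ± 0.045 (-0.15 with median centring). The part of the feeder, endoderm or macrophage markers in the rise of the cathepsins was not tested.

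**Figure D4:**
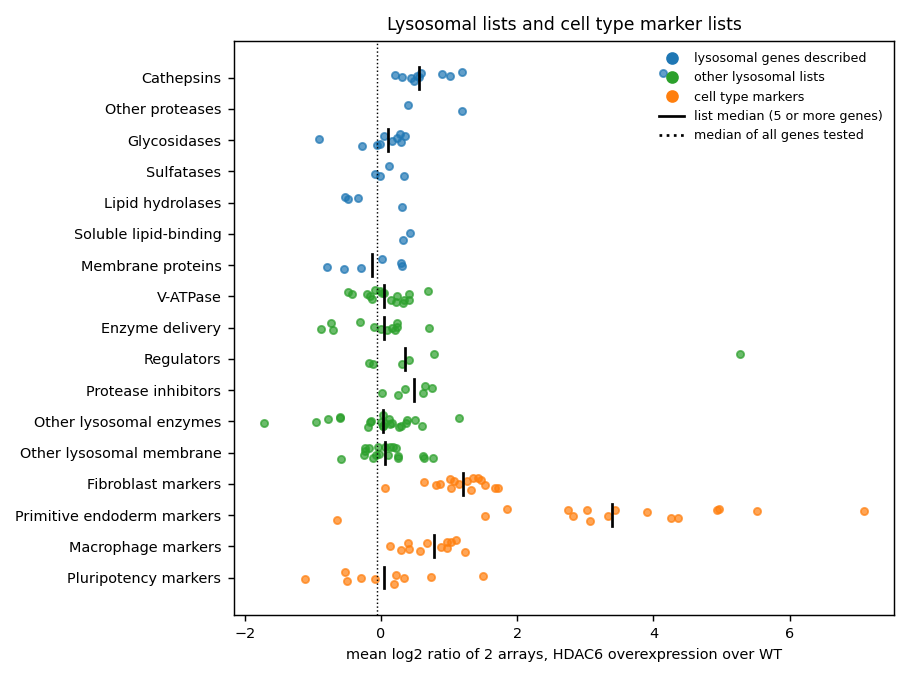
Mean log2 ratio of overexpression over WT (horizontal axis) for every tested gene of the lysosomal roles (blue), the other lysosomal lists (green) and the cell type marker lists (orange), with a point per gene, a bar at the median of lists of 5 or more genes and a dotted line at the median of all genes. The restricted cathepsins, of which only Ctsw was tested, are not drawn. The points of Ctso, Ttr and Spi1 rest on WT signals not well above background. The medians are 0.56 for cathepsins, 1.20 for fibroblast, 3.39 for primitive endoderm and 0.78 for macrophage markers.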

How the data were processed

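Per the file headers, the authors read both two-colour arrays with Agilent Feature Extraction 11.5.1.1 (62976 spots, 3671 of them controls). The deposited processed intensity of each channel is background-subtracted and dye-normalized, the deposited log10 ratio is that of Cy5 over Cy3, and the raw median intensity is uncorrected. The deposited log2 series table matched the log2 ratio of the processed signals with its sign turned (slope -1 and r = -1 on both arrays). The series table is therefore WT over overexpression and no independent evidence. Its column medians were -0.0074 and 0.062. Whether it was centred further is unknown. Amplification was linear (Eberwine), per the labels' protocols.

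Here the log2 ratio of the processed signals was used. Outlier-marked spots (269 and 313) were left out and spots of a probe averaged; 0 spots were saturated. Accessions without versions were matched to RefSeq names (GRCm38.p6): of 55681 probes 26762 had 1 symbol, 0 several and 28919 none. The brightest probe stood for a gene and had to be well above background in the same channel on both arrays. The mean ratio was tested against 0 with limma 3.58.1 in R 4.3.3 (lmFit and eBayes, two-sided, prior degrees of freedom 4.59). Benjamini-Hochberg adjustment ran over 16071 genes, and a call needed an adjusted p under 0.05. Simulated data were used beforehand to check the code. They held independent arrays and no dye effect, so that check says nothing of either limit. A bound for a channel not well above background used Aquantile-scaled signals. Alternatives were normexp (offset 50) on raw median signals with loess or median centring, the series table, other filters and probe rules, an intensity trend and each array alone. Mean spot signals, which the plan named, are not a column used here. The members and lists were chosen with earlier results of these data known. Members were given with the signals of both channels where called, alike in sign on both arrays and changed by at least 1.5-fold, or where highest or lowest of their role; further members were added. Of each other list up to 3 called genes with the largest absolute ratio were named, beside the 4 E-box factors; genes beyond this (Flcn, Zkscan3, Afp, Spi1, Itgam, Lamp3, Pou5f1) were named after their values were seen.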

Additional observations from a re-analysis of the deposited data

How the results depend on the processing

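No member reversed a called direction under any alternative run, and the series table and keeping outlier-marked spots changed no call. Without the filter on dim probes 13 members were higher in place of 20. The share of all genes also fell, to 17.0% higher and 22.5% lower of the 20274 then tested. At that setting 1 glycosidase, 0 lipid hydrolases, 1 soluble lipid-binding protein and 0 membrane proteins were higher. There 2 restricted cathepsins were lower, and 9 members lost their call. Requiring at least 1.5-fold on both arrays left 5 members higher and 2 lower: 4 cathepsins (Ctso, dim in WT, among them), 1 other protease, 0 glycosidases, 0 lipid hydrolases, 0 soluble lipid-binding and 0 membrane proteins higher, and 0 lipid hydrolases and 1 membrane protein lower. The same rule left 0 V-ATPase genes either way, 0 delivery genes higher, and 1 regulator and 2 inhibitors higher. Of the other lysosomal enzymes and related proteins it left 1 higher and 3 lower. It also left 0 other membrane proteins lower, 6 macrophage markers higher and 1 pluripotency marker lower. With median centring 30.3% of all genes were higher and 30.0% lower. Of the members 5 glycosidases were higher and 2 lower, and 1 sulfatase and 0 lipid hydrolases were higher. Of the other lists 11 V-ATPase, 6 delivery and 7 pluripotency genes were higher. In the same setting 8 other membrane proteins were higher and 4 lower. The medians were then 0.35 (members), 0.89 (cathepsins), 0.24 (glycosidases) and -0.0028 (membrane proteins), 4 members lost their call and 6 gained one. With loess 2 glycosidases were lower, 1 sulfatase higher, 5 other membrane proteins higher and 4 lower, the members' median was 0.26 and 3 members gained a call. With an intensity trend 2 glycosidases were lower and 4 delivery genes and 5 other membrane proteins higher. With both channels well above background the members' median was 0.29, and with the mean over probes the cathepsins' was 0.59 and Lamp1 lost its call. On 1 array alone the members' median was 0.26 to 0.27. Why these values moved was not tested beyond the settings themselves. The ratio within each array already pairs the genotypes, so no further block applies. Precision is limited by having only 2 arrays, and the WT signal of Ctso gives a bound only.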
